A study of Mus musculus with 6 samples.

Results

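The genes described here are 40 interferon response and MHC class I genes, measured by RNA sequencing in mouse epidermis that was labelled ARPC4 ko or wt. They were chosen by name, with earlier results of these data known. They are known induced genes, sensors and transcription factors of the interferon pathway, or genes that make, load or control class I molecules. Each symbol was matched to its Ensembl gene identifier. All 40 were found among the 41214 gene identifiers counted. By role there were 3 RNA sensors, 5 transcription factors, 15 antiviral effectors, 4 regulators and other induced genes, 2 guanylate-binding proteins, 2 chemokines and 9 genes of class I presentation.

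Interferons are cytokines that cells release when sensors detect viral or misplaced nucleic acid, and they act through receptors coupled to JAK kinases. Type I and type III interferons lead to a complex that includes Stat2 and Irf9 and binds interferon-stimulated response elements (ISREs), while interferon gamma acts mainly through gamma-activated sites (GAS). Class I molecules show peptides made by the proteasome to CD8+ T cells, and keratinocytes can raise both programmes when exposed to interferon.

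The tested libraries were 3 labelled ARPC4 ko, called ko 1 to ko 3, and the control libraries were 3 labelled wt, called wt 1 to wt 3. All 6 came from trypsinized skin of C57BL/6 mice at postnatal day 4, with messenger RNA libraries that keep the strand and single reads of 51 bp. Arpc4 encodes a subunit of the Arp2/3 complex, which builds branched actin networks, and the series title concerns loss of this complex in epidermis, a psoriasis-like disease and the transcription factor Nrf2. The labels name neither a Cre driver nor the deleted part of the gene, and they leave unsaid whether each replicate is a different animal. The p-values then measure the spread between these samples, part of which may be technical. The titles of replicates 1 and 2 of each group carry a date, while those of replicate 3 carry none and hold the mark Tryp. The labels do not say what sets these libraries apart.

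Counts assigned to genes ranged from 17561294 to 20745246 in the ko libraries and from 19532675 to 22659511 in the wt libraries. Arpc4 itself stood at 67.6, 65.6 and 64.5 CPM (counts scaled to library size by TMM) in ko 1 to 3, against 72.6, 82.5 and 73.1 CPM in wt 1 to 3. Its log2 fold change was -0.21 (SE 0.10; edgeR, Benjamini-Hochberg adjusted p = 0.469), so the counts of the whole gene do not show its loss in the libraries labelled ARPC4 ko. As the deleted part is not named, this level could not be used to check the label. Xist, the RNA of the inactive X chromosome, lay at 542.9, 0.177 and 507.8 CPM in ko 1 to 3 and at 0.22, 0.426 and 578.7 CPM in wt 1 to 3. The Y-linked Ddx3y lay at 0, 121.3 and 0 CPM in ko 1 to 3 and at 92.1, 95.2 and 1.22 CPM in wt 1 to 3. Xist was therefore above Ddx3y in ko 1, ko 3 and wt 3, and below it in ko 2, wt 1 and wt 2. Both orders occurred in each group, so neither group came from 1 animal alone. Entries for reads with several alignments were 35.1 to 39.4% of all entries counted in the ko libraries and 32.4 to 40.9% in the wt libraries. Whether such a read was entered for each of its alignments is not given, and such reads were not assigned to a gene. Counts of genes with close copies, such as H2-K1 and H2-D1 and the Ifit, Oas, Ifitm and Gbp families, are therefore uncertain.

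Promoters are shown because interferon acts on its target genes mainly there, for 4 effector genes, 1 immunoproteasome gene and Irf7, the member whose ko libraries all lay below its wt libraries. Promoter windows from 250 bases before to 50 bases after the transcription start were taken from RefSeq (GRCm38.p6), which held 36 windows for 31 of the 40 genes. The search used GAAA, any 2 bases and GAAA for the ISRE, and TTC, any 3 bases and GAA for the GAS, on both strands, with overlapping matches kept. Each sequence runs 5′ to 3′ on the strand of its gene, and capitals mark matches to either motif.
Isg15, chr4:156200769-156201068, minus strand: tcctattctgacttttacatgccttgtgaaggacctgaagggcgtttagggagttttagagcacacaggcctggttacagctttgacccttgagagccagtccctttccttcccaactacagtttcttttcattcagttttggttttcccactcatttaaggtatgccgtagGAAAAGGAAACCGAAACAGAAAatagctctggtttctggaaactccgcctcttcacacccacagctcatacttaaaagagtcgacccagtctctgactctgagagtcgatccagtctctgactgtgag
Bst2, chr8:71537423-71537722, minus strand: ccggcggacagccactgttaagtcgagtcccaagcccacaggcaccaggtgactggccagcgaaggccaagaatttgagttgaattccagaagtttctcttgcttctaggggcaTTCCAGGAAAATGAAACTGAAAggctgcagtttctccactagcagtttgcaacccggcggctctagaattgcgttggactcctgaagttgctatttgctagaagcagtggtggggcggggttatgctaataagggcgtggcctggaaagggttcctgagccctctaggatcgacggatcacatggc
Oas1a, chr5:120907476-120907775, minus strand: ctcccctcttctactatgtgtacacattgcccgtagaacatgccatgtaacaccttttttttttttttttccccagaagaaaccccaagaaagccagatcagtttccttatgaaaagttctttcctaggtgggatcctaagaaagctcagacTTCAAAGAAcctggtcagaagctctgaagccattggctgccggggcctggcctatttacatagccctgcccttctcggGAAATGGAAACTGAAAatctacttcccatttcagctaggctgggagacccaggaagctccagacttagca
Oas3, chr5:120777610-120777909, minus strand: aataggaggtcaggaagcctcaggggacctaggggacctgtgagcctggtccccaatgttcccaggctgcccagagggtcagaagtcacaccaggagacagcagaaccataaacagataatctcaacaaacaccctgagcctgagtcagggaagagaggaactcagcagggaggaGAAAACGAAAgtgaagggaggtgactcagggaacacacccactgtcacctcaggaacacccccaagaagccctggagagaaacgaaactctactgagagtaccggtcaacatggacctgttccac
Psmb9, chr17:34187281-34187580, minus strand: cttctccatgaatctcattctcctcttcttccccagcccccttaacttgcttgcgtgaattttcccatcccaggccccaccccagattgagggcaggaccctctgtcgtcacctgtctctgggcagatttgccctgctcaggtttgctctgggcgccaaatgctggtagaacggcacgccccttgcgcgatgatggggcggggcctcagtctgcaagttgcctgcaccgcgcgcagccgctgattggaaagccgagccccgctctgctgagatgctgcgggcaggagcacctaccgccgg
Irf7, chr7:141266375-141266674, minus strand: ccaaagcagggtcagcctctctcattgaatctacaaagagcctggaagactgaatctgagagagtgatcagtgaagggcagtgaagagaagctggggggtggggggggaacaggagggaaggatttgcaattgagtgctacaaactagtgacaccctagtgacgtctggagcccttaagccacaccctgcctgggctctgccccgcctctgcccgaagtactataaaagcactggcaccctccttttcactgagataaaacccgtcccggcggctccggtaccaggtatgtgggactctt
Isg15 had 3 overlapping ISRE matches whose first bases lay 78, 72 and 66 bases before the start. Bst2 had 2, at 130 and 124 bases before the start, the first of which shares bases with a GAS match. Oas1a had 2, at 20 and 14 bases before the start, with a GAS match further upstream, and Oas3 had 1, at 75 bases before the start. The Psmb9 and Irf7 windows held neither motif, which says only that these letters are not in these windows. The Psmb9 window is shown also because it shares 275 bases, on the opposite strand, with the window of Tap1, its divergent neighbour.

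Over the whole set, these ISRE letters occurred in the windows of 15 of the 31 genes, against 3.99% of all 27025 genes in the table and 3.44% of its 32851 windows. The longer form with a C after the second GAAA occurred in 12 of the 31, against 0.944% of all genes. GAS letters occurred in 7 of the 31, Irf1, Ifit2, Oas1a, Bst2, Ifitm3, Ifi35 and Psmb8, against 9.55% of all genes. The genes had been chosen as known interferon targets, so these shares describe the choice. Of the 15 genes with the ISRE letters 13 were tested, and all 13 had log2 fold changes above 0, with a median of 1.36 and a range from 0.09 for Stat2 to 2.18 for Gbp2 and Rsad2. The 9 genes without a window in the table had 8 tested, all 8 above 0, with a median of 1.17. Of the 16 genes with a window but without these letters 14 were tested, 10 of them above 0, with a median of 0.56 and a range from -1.25 for Irf7 to 2.78 for Oasl2. Differences between these medians were not tested.

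The comparison of ARPC4 ko with wt epidermis asked how far these 40 genes differed with genotype. The 10 tested antiviral effectors had a median log2 fold change (ko over wt) of 1.65, against 0.02 for all genes tested. Of the 10, 0 passed the test, and the groups overlapped in 8, where they overlapped in 11052 of all 13704 genes. Irf7 was the 1 member with all ko libraries below all wt libraries, an order seen in 8.03% of all genes. Class I presentation genes had a median of 0.43. In these bulk samples more cells of a type and more RNA per cell cannot be told apart. Of the 40 genes 35 had enough reads to be tested and 5 had not, namely Ifit1, Ifit3, Oasl1, Mx2 and Ifi44. By edgeR's quasi-likelihood test with Benjamini-Hochberg adjustment over all genes, 0 of the 35 passed the threshold of 0.05, where 0.219% of all 13704 genes tested were called higher and 0% lower. Without adjustment 7 were higher at p under 0.05, Dhx58, Oas1a, Oas3, Oasl2, Mx1, Bst2 and Ifi35, which is 20% of the 35 against 7.98% of all genes. Irf7 was the 1 lower at that level, against 5.25% of all genes.

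Of the 35 tested genes 31 had log2 fold changes above 0, 88.6% against 53.1% of all genes, and the median was 1.12 against 0.02. All ko values exceeded all wt values in 4 of them, Dhx58, Mx1, Bst2 and Ifi35, a share of 11.4% that is close to the 11.3% among all genes. All ko values were under all wt values in 1, Irf7, against 8.03% among all genes. DESeq2 called 2 of the genes, Mx1 higher and Irf7 lower (adjusted p = 0.033 and 0.0088), where it called 2.82% of genes higher and 1.43% lower, and limma-voom called 0. The median of 1.12 was 0.10, with 23 of 35 above 0, when ko 3 alone was left out. It was 0.63, with 23 of 32 above 0, in a fit on the dated libraries, which left out both ko 3 and wt 3.

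**Figure D1:**
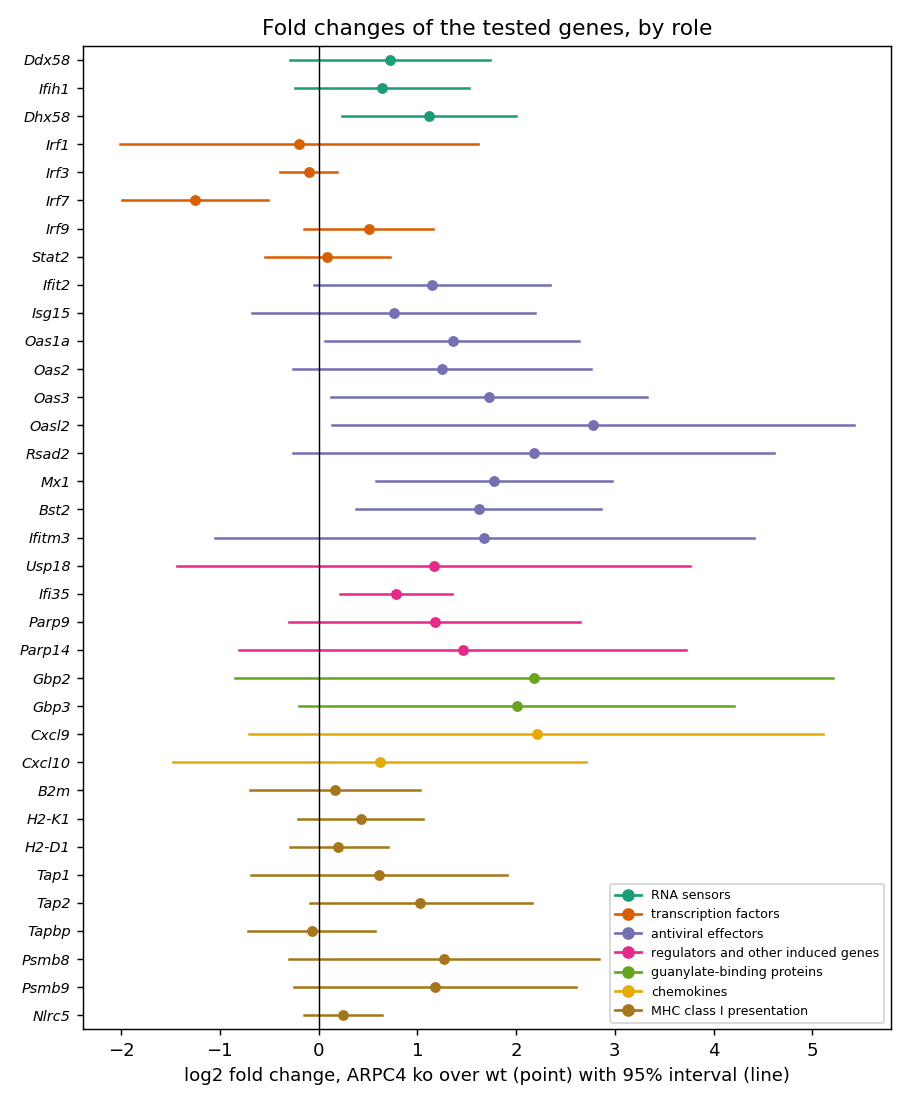
Log2 fold change of each tested gene, ARPC4 ko over wt (points, horizontal axis), with its 95% interval (lines) and coloured by role, in 1 row per gene. Of 35 points 31 lie right of 0, from 0.09 for Stat2 to 2.78 for Oasl2. The widest intervals belong to Gbp2, Cxcl9, Ifitm3 and Oasl2.

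Antiviral effectors are the proteins that block viral entry, replication, translation or release. All 10 of the 15 that were tested had log2 fold changes above 0, from 0.76 for Isg15 to 2.78 for Oasl2. Of these, 5 had an unadjusted p under 0.05 with edgeR, or 50% against 7.98% of all genes. Mx1 (ENSMUSG00000000386, chromosome 16, 97447035 to 97462907, minus strand, GRCm38) encodes a dynamin-like GTPase against influenza viruses, of which many inbred mouse strains carry a defective allele. It stood at 2.68, 1.48 and 5.19 CPM in ko 1 to 3, against 1.1, 0.851 and 0.771 CPM in wt 1 to 3. The lowest ko library was above the highest wt library, and wt 3, the highest wt library for most of the 40 genes, was the lowest here. The log2 fold change was 1.78 (SE 0.50, 95% interval 0.58 to 2.97; edgeR, Benjamini-Hochberg adjusted p = 0.193), and it was 1.17 without ko 3.

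Bst2 (ENSMUSG00000046718, chromosome 8, 71534255 to 71537456, minus strand) encodes tetherin, which holds budding virus at the cell surface. It stood at 3.03, 2.25 and 6.71 CPM in ko 1 to 3, against 0.836, 1.12 and 1.95 CPM in wt 1 to 3, and the groups did not overlap. Its log2 fold change was 1.62 (SE 0.52, 95% interval 0.38 to 2.86; edgeR, Benjamini-Hochberg adjusted p = 0.256), and it was 0.99 without ko 3. Within the dated libraries the difference was 1.08 and between the undated libraries 1.56, both on the log2(CPM + 0.5) scale. An edgeR fit on the dated libraries alone gave a log2 fold change of 1.43. Bst2 was thus higher in ko among both dated and undated libraries. So were most tested genes on the log2(CPM + 0.5) scale, with 29 of 35 above 0 within the dated and 33 of 35 between the undated libraries. Of all genes tested, 55% and 50% were above 0 in these comparisons. In the edgeR fit on the dated libraries 23 of 32 were above 0, and Cxcl10 was at -0.30 there, against 0.09 on the log2(CPM + 0.5) scale.

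The Oas genes encode enzymes that sense double-stranded RNA and make short oligoadenylates as a signal. Oas1a (ENSMUSG00000052776) stood at 0.895, 0.71 and 1.78 CPM in ko 1 to 3, against 0.264, 0.319 and 0.726 CPM in wt 1 to 3. Ko 2 lay just within the wt range, so the groups overlapped at their edge. The log2 fold change of Oas1a was 1.36 (SE 0.54; edgeR, Benjamini-Hochberg adjusted p = 0.348). Oas3 (ENSMUSG00000032661) stood at 1.49, 0.591 and 2.41 CPM in ko 1 to 3, against 0.264, 0.213 and 0.862 CPM in wt 1 to 3. Ko 2 was again below wt 3, and the log2 fold change was 1.73 (SE 0.67; edgeR, Benjamini-Hochberg adjusted p = 0.338). Oas2 stood at 2.88, 0.71 and 3.04 CPM in ko 1 to 3, against 0.572, 0.585 and 1.63 CPM in wt 1 to 3, with a log2 fold change of 1.25 (SE 0.63). Here ko 1 and ko 3 were alike and ko 2 stood near the wt libraries. Without ko 3 the log2 fold changes were 0.83 for Oas1a, 1.19 for Oas3 and 0.94 for Oas2, and without wt 3 they were 1.94, 2.62 and 1.94.

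Oasl2 (ENSMUSG00000029561, chromosome 5, 114896936 to 114912234, plus strand), an Oas-like gene, had the largest log2 fold change of the tested members. It stood at 1.89, 0.946 and 11.0 CPM in ko 1 to 3, against 0.264, 0.213 and 1.5 CPM in wt 1 to 3. The 2 undated libraries were the highest of their groups, and ko 2 was below wt 3. Its log2 fold change was 2.78 with a wide interval (SE 1.11, 95% interval 0.14 to 5.42; edgeR, Benjamini-Hochberg adjusted p = 0.348). In an edgeR fit on the dated libraries alone it was 2.53. The log2(CPM + 0.5) scale, which shrinks differences at low levels, gave 1.33 within the dated and 2.53 between the undated libraries. The edgeR log2 fold change was 1.06 without ko 3 and 4.24 without wt 3. Its neighbour Oasl1, known in mice to hold back translation of Irf7, had 3, 3 and 7 counts in ko 1 to 3, against 0, 0 and 1 counts in wt 1 to 3. These counts were too few for a test, although each ko library was above each wt library.

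Isg15 encodes a ubiquitin-like protein that is attached to other proteins. It stood at 2.58, 1.89 and 7.13 CPM in ko 1 to 3, against 1.72, 1.38 and 3.72 CPM in wt 1 to 3. Ko 1 and ko 2 lay between the wt libraries, and the log2 fold change of 0.76 (SE 0.60) became -0.06 without ko 3. Ifitm3 (ENSMUSG00000025492), a membrane protein that blocks the fusion of viruses in endosomes, was the most abundant effector. It stood at 19.8, 19.2 and 149.3 CPM in ko 1 to 3, against 14.35, 2.18 and 42.2 CPM in wt 1 to 3. Ko 3 was far above the other ko libraries and wt 2 far below the other wt libraries, and the log2 fold change, 1.68 (SE 1.15) with a 95% interval from -1.05 to 4.41, became -0.05 without ko 3.

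Rsad2 encodes viperin, which makes a nucleotide that stops viral RNA synthesis. It stood at 0.596, 0.532 and 2.73 CPM in ko 1 to 3, against 0.132, 0 and 0.68 CPM in wt 1 to 3, with a log2 fold change of 2.18 (SE 1.02). Wt 3 was above ko 1 and ko 2, and the log2 fold change was 0.96 without ko 3 and 4.05 without wt 3. The Ifit genes, whose proteins bind viral RNA, were barely detected. Ifit2 stood at 0.497, 0.769 and 1.15 CPM in ko 1 to 3, against 0.396, 0.16 and 0.499 CPM in wt 1 to 3, with a log2 fold change of 1.15 (SE 0.50) that was 0.75 without ko 3. Ifit1 had 10, 5 and 75 counts in ko 1 to 3, against 1, 2 and 21 counts in wt 1 to 3. Ifit3 had 4, 4 and 3 counts in ko 1 to 3, against 1, 0 and 2 counts in wt 1 to 3. At such counts ko 3 was the highest library for Ifit1 and the lowest ko library for Ifit3. Mx2 had 9, 5 and 14 counts in ko 1 to 3, against 3, 3 and 8 counts in wt 1 to 3. Ifi44 had 4, 3 and 18 counts in ko 1 to 3, against 0, 2 and 6 counts in wt 1 to 3. Both groups overlapped in these 2 genes.

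The 3 RNA sensors, cytoplasmic helicases that detect viral RNA, all had log2 fold changes above 0 with a median of 0.72. Dhx58 (ENSMUSG00000017830, chromosome 11, 100694884 to 100704271, minus strand) encodes LGP2, which tunes the signalling of the others. It stood at 1.09, 1.0 and 1.89 CPM in ko 1 to 3, against 0.66, 0.479 and 0.68 CPM in wt 1 to 3. The groups did not overlap, and its log2 fold change was 1.12 (SE 0.37, 95% interval 0.24 to 2.0; edgeR, Benjamini-Hochberg adjusted p = 0.268). Ifih1, the gene of the sensor MDA5, stood at 12.9, 9.93 and 25.5 CPM in ko 1 to 3, against 9.9, 8.3 and 12.9 CPM in wt 1 to 3. Ddx58, the gene of RIG-I, stood at 6.96, 4.79 and 13.95 CPM in ko 1 to 3, against 4.53, 4.09 and 6.94 CPM in wt 1 to 3. For both, ko 3 was by far the highest library and the other ko libraries lay within or near the wt range, with log2 fold changes of 0.64 (SE 0.37) for Ifih1 and 0.72 (SE 0.43) for Ddx58. Without ko 3 these were 0.10 and 0.15, and that of Dhx58 was 0.74.

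Among the 5 transcription factors only Irf7 reached an unadjusted p under 0.05, and in the lower direction. Irf7 (ENSMUSG00000025498, chromosome 7, 141262706 to 141266481, minus strand) encodes the factor that amplifies type I interferon production and is itself an interferon-induced gene. It stood at 26.9, 12.4 and 20.2 CPM in ko 1 to 3, against 39.3, 61.5 and 41.0 CPM in wt 1 to 3. All ko libraries lay below all wt libraries, with 19.85 ± 7.3 CPM in ko and 47.3 ± 12.4 CPM in wt (mean ± SD, n = 3 each). The log2 fold change was -1.25 (SE 0.31, 95% interval -1.99 to -0.51), which missed the threshold with edgeR (Benjamini-Hochberg adjusted p = 0.159). It was -1.40 within the dated and -1.0 between the undated libraries on the log2(CPM + 0.5) scale, and from -1.53 to -1.0 when any 1 library was left out. The highest libraries for Irf7 were ko 1 among ko and wt 2 among wt, unlike most of the other genes.

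Irf9, the DNA-binding part of the complex that binds ISREs, stood at 33.7, 23.4 and 48.6 CPM in ko 1 to 3, against 23.9, 21.0 and 29.5 CPM in wt 1 to 3. Ko 2 lay within the wt range, and the log2 fold change of 0.51 (SE 0.27) was 0.17 without ko 3. Its partner Stat2 stood at 19.7, 16.1 and 31.0 CPM in ko 1 to 3, against 21.0, 17.2 and 24.4 CPM in wt 1 to 3. The ko range enclosed the wt range, and the log2 fold change of 0.09 (SE 0.26) was -0.26 without ko 3. Irf3, which is present before infection and is activated by phosphorylation, stood at 43.3, 36.7 and 34.7 CPM in ko 1 to 3, against 43.1, 39.4 and 40.6 CPM in wt 1 to 3. Its 95% interval, -0.39 to 0.19, was the narrowest of the factors. Irf1, a factor induced mainly by interferon gamma, stood at 10.04, 6.92 and 30.4 CPM in ko 1 to 3, against 24.6, 4.15 and 25.6 CPM in wt 1 to 3. Its libraries split into high and low ones within both groups, and its log2 fold change of -0.20 (SE 0.76) turned to between 0.04 and 0.15 when ko 1, ko 2, wt 1 or wt 3 was left out.

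The 4 regulators and other induced genes had a median log2 fold change of 1.17. Ifi35 (ENSMUSG00000010358, chromosome 11, 101448407 to 101458698, plus strand), an interferon-induced protein that pairs with Nmi, stood at 10.7, 9.93 and 16.8 CPM in ko 1 to 3, against 6.96, 6.81 and 7.98 CPM in wt 1 to 3. Every ko library was above every wt library, and the wt libraries lay close together, with 12.5 ± 3.745 CPM in ko and 7.25 ± 0.638 CPM in wt (mean ± SD, n = 3 each). The log2 fold change was 0.78 (SE 0.24, 95% interval 0.22 to 1.35; edgeR, Benjamini-Hochberg adjusted p = 0.231), and it was 0.48 without ko 3. Parp9 encodes a partner of an ubiquitin ligase in the interferon response, and it stood at 9.39, 8.99 and 34.9 CPM in ko 1 to 3, against 5.68, 5.37 and 12.5 CPM in wt 1 to 3. Ko 3 and wt 3 were each the highest of their group, and the log2 fold change of 1.18 (SE 0.62) was 0.19 without ko 3. Parp14, an ADP-ribosyltransferase, stood at 4.52, 1.6 and 17.4 CPM in ko 1 to 3, against 2.25, 0.691 and 5.53 CPM in wt 1 to 3. It showed the same order of libraries within each group, with a log2 fold change of 1.46 (SE 0.95) that was 0.08 without ko 3. Usp18, which removes Isg15 from proteins and dampens the type I receptor, stood at 0.845, 0.0591 and 3.67 CPM in ko 1 to 3, against 0.396, 0.213 and 1.41 CPM in wt 1 to 3. Ko 2, with 1 count, was the lowest of the 6 libraries, and the log2 fold change of 1.17 (SE 1.09) was -0.55 without ko 3.

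Guanylate-binding proteins and the Cxcr3 chemokines are induced most strongly by interferon gamma, and they spread widely between libraries. Gbp2, a GTPase that attacks vacuoles of intracellular pathogens, stood at 4.17, 1.06 and 29.9 CPM in ko 1 to 3, against 1.06, 0.532 and 6.08 CPM in wt 1 to 3. Ko 3 was the highest library and wt 3 the next, above both dated ko libraries. Its log2 fold change was 2.18 (SE 1.27, 95% interval -0.85 to 5.21), and it was 0.01 without ko 3. Gbp3 stood at 1.14, 0.237 and 2.41 CPM in ko 1 to 3, against 0.044, 0.266 and 0.635 CPM in wt 1 to 3, with a log2 fold change of 2.01 (SE 0.92; edgeR, Benjamini-Hochberg adjusted p = 0.424) that was 1.14 without ko 3. Ko 2 lay within the wt range.

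Cxcl9, which draws activated T cells through Cxcr3, stood at 3.23, 0.769 and 21.8 CPM in ko 1 to 3, against 0.616, 0.745 and 4.17 CPM in wt 1 to 3. Its 4 highest libraries came in the same order as for Gbp2, with a log2 fold change of 2.21 (SE 1.22; edgeR, Benjamini-Hochberg adjusted p = 0.522) that was 0.10 without ko 3. Cxcl10, a ligand of the same receptor, stood at 4.42, 3.43 and 22.8 CPM in ko 1 to 3, against 7.88, 1.54 and 10.5 CPM in wt 1 to 3. Both dated ko libraries lay between the wt libraries, and the log2 fold change of 0.62 (SE 0.88) was -0.80 without ko 3 and -0.30 among the dated libraries.

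**Figure D2:**
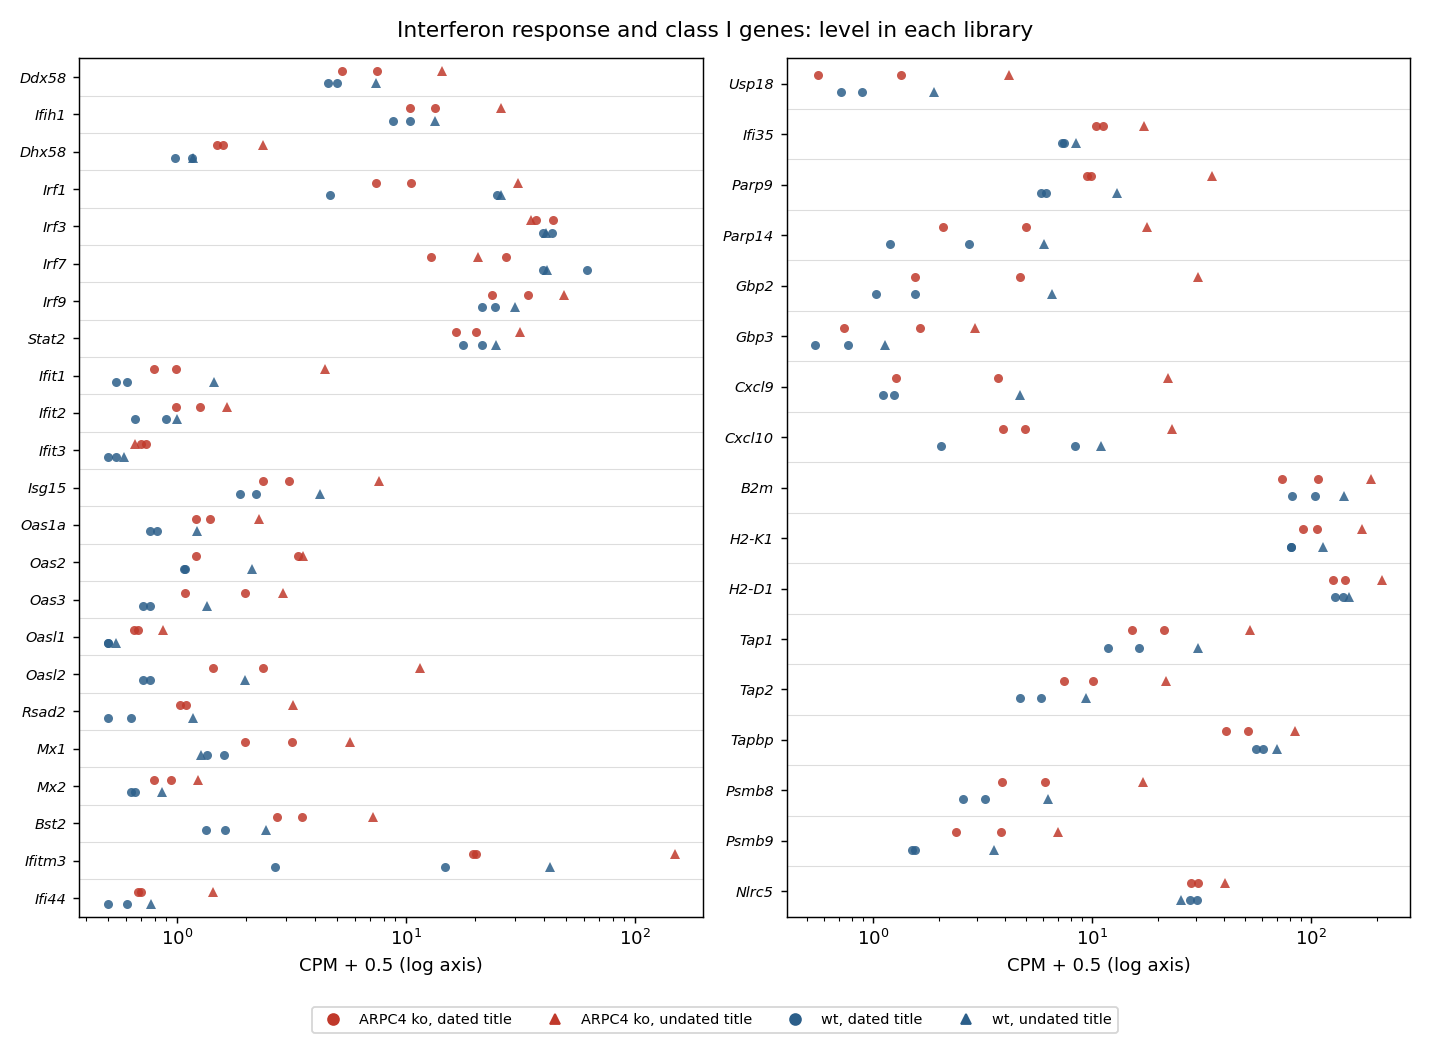
Level of each of the 40 genes in each library, as CPM + 0.5 on a log axis, with ARPC4 ko in red above wt in blue and triangles for the undated titles. The ko 3 triangle is the rightmost point for 37 of the 40 genes, while for Irf7 the red points at 12.4 to 26.9 CPM lie left of the blue points at 39.3 to 61.5 CPM.

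Class I heavy and light chains were the most abundant of the 40 genes in wt, and 0 of the 9 class I presentation genes reached an unadjusted p under 0.05. The scale for levels between genes is CPM per kilobase of summed exons, averaged over 3 libraries. On this scale the highest was B2m, the light chain of every class I molecule, with 142.2 in ko and 126.6 in wt. The heavy chain genes H2-D1, with 61.9 in ko and 53.8 in wt, and H2-K1, with 41.7 in ko and 31.0 in wt, came next in wt. Ifitm3, with 92.6 in ko and 28.9 in wt, and Tapbp, with 16.2 in ko and 17 in wt, followed in the wt order. In ko Ifitm3 came right after B2m, with most of its reads in ko 3. The lowest of the 40 was Oasl1, at 0.0887 in ko and 0.0058 in wt. With the longest transcript in place of summed exons the wt levels of H2-D1, H2-K1 and Tapbp were 66.0, 48.7 and 21.3.

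B2m (ENSMUSG00000060802) stood at 106.9, 73.4 and 186.5 CPM in ko 1 to 3, against 81.7, 103.4 and 141.6 CPM in wt 1 to 3. The ko range enclosed the wt range, and the log2 fold change was 0.17 (SE 0.36, 95% interval -0.69 to 1.03), or -0.31 without ko 3. H2-K1 (ENSMUSG00000061232), 1 of the classical heavy chains of this strain, stood at 105.6, 91.2 and 171.1 CPM in ko 1 to 3, against 80.4, 80.7 and 112.5 CPM in wt 1 to 3. Wt 3 lay above both dated ko libraries, and the log2 fold change was 0.43 (SE 0.27, 95% interval -0.21 to 1.06), or 0.07 without ko 3. H2-D1 (ENSMUSG00000073411), the other classical heavy chain, stood at 142.6, 125.4 and 210.8 CPM in ko 1 to 3, against 127.9, 139.4 and 149.0 CPM in wt 1 to 3. Its log2 fold change, 0.20 (SE 0.21) with a 95% interval from -0.29 to 0.70, was -0.09 without ko 3. A 95% interval of this width leaves room for higher and lower levels of both B2m and H2-D1 in ko.

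The genes that supply and load peptide were less abundant and had larger log2 fold changes than the heavy and light chains, except Tapbp, and this difference was not tested. Tap1 and Tap2 encode the transporter that carries peptides into the endoplasmic reticulum. Tap2 (ENSMUSG00000024339) stood at 9.59, 6.98 and 21.2 CPM in ko 1 to 3, against 5.37, 4.2 and 8.89 CPM in wt 1 to 3. Ko 2 was below wt 3, and the log2 fold change was 1.03 (SE 0.47; edgeR, Benjamini-Hochberg adjusted p = 0.422), or 0.39 without ko 3. Tap1 stood at 20.9, 14.7 and 52.2 CPM in ko 1 to 3, against 16.0, 11.3 and 30.1 CPM in wt 1 to 3. Its log2 fold change of 0.61 (SE 0.54) was -0.14 without ko 3. Tapbp, the gene of tapasin, which bridges transporter and heavy chain, stood at 51.3, 40.4 and 84.3 CPM in ko 1 to 3, against 55.6, 59.9 and 69.5 CPM in wt 1 to 3. Both dated ko libraries were the lowest of the 6, and the log2 fold change of -0.07 (SE 0.27) was -0.46 without ko 3 and 0.14 without ko 2.

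Psmb8 and Psmb9 encode catalytic subunits of the immunoproteasome, which replaces standard subunits under interferon. Psmb9 (ENSMUSG00000096727) stood at 3.33, 1.89 and 6.5 CPM in ko 1 to 3, against 1.01, 1.06 and 3.08 CPM in wt 1 to 3. Psmb8 stood at 5.62, 3.37 and 16.6 CPM in ko 1 to 3, against 2.07, 2.77 and 5.8 CPM in wt 1 to 3. In both genes wt 3 was above ko 2, and the dated ko libraries were above the dated wt libraries. Their log2 fold changes were 1.18 (SE 0.60) for Psmb9 and 1.27 (SE 0.66) for Psmb8. Without ko 3 they were 0.57 for Psmb9 and 0.31 for Psmb8, and without wt 3 they were 1.91 and 1.83. Nlrc5, the transactivator of class I genes, stood at 30.0, 27.8 and 40.02 CPM in ko 1 to 3, against 27.6, 29.8 and 25.0 CPM in wt 1 to 3. Here wt 3 was the lowest library, and the log2 fold change was 0.25 (SE 0.17, 95% interval -0.15 to 0.64), or 0.04 without ko 3.

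Most of the 40 genes had the same highest library within each genotype. Ko 3 was the highest of all 6 libraries for 37 of the 40, where it was the highest for 24% of all genes tested. Wt 3 was the highest wt library for 36 of the 40, against 42.8% of all genes. Means over the 40 genes, on the log2(CPM + 0.5) scale, were 2.57, 2.09 and 3.64 in ko 1 to 3 and 1.97, 1.73 and 2.65 in wt 1 to 3. The undated libraries were thus the highest of each genotype, and wt 3 was above ko 1 and ko 2. The 3 libraries with Xist above Ddx3y, ko 1, ko 3 and wt 3, had the highest means of the 6.

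**Figure D3:**
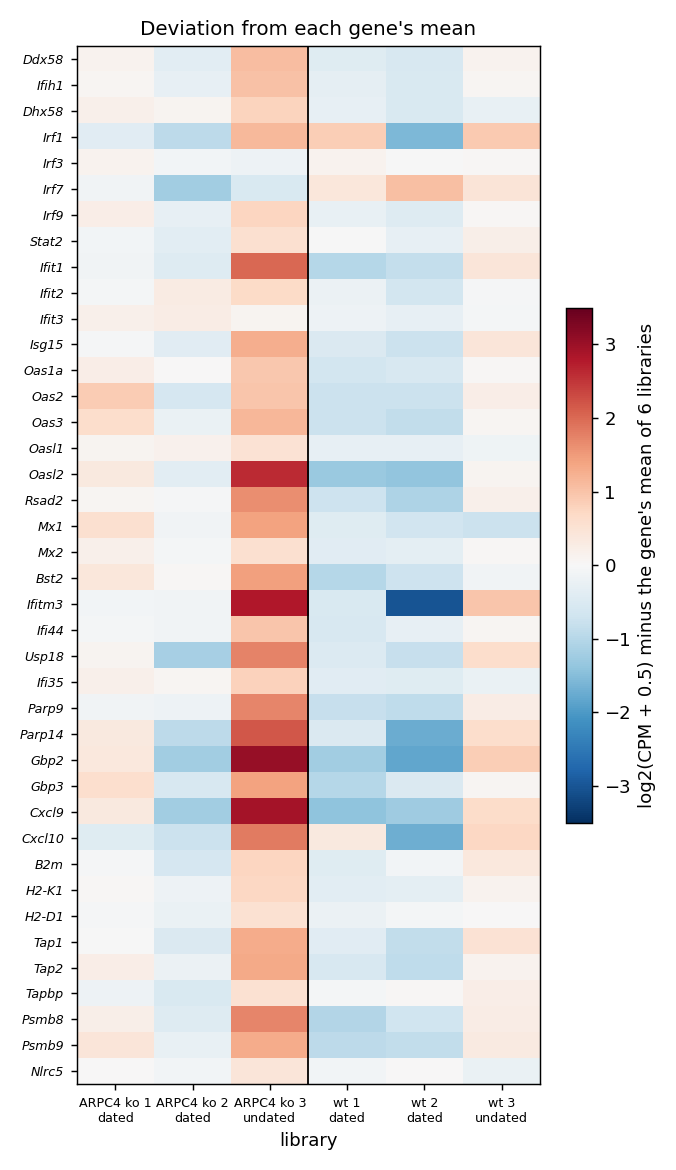
Each gene's log2(CPM + 0.5) in each library minus its mean over the 6 libraries, as colour from blue (lower) to red (higher), with 1 row per gene and the ARPC4 ko libraries left of wt. The ko 3 column is the darkest red and the wt 2 column mostly blue, and Irf7 is blue in the ko columns and red in the wt columns.

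Comparisons within the dated and within the undated libraries were made on the log2(CPM + 0.5) scale for the 35 tested genes. Within the dated libraries the median difference, ko minus wt, was 0.55, with 29 of 35 above 0, and between the undated libraries, 1 per genotype, it was 0.97, with 33 of 35 above 0. All genes tested had medians of 0.04 and 0.00 in the same comparisons, with 55% and 50% above 0. The median of the 35 over all libraries was 0.70. In the 3 libraries with Xist above Ddx3y the median difference was 0.48, with 29 of 35 above 0. In the 3 with Ddx3y above Xist it was 0.19, with 25 of 35 above 0. All genes tested had medians of 0.00 and 0.04 in these comparisons by sex, with 50.4% and 54.3% above 0. The first rests on 1 wt library, wt 3, and the second on 1 ko library, ko 2. Irf7 was lower in ko in each of the 4 comparisons, with the lowest difference of the 35 in each. Median differences were smaller within each sex than over all libraries, and the reason was not tested. The ko group held more libraries with Xist than the wt group. Wt 3 was the sole wt library with Xist above Ddx3y and also the sole undated one. Sex and the kind of title therefore cannot be told apart in wt. With the sex of the library as a covariate, an analysis added after seeing the data, the median log2 fold change was 0.67, with 29 of 35 above 0, and edgeR called 0 of the 35 (0.416% of all genes higher, 0.0365% lower), with an unadjusted p under 0.05 for 5 on the higher and 1 on the lower side. The 5 are 14.3% of the 35, against 8.22% of all genes, and the lower gene compares with 4.5% of all genes.

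With the dated or undated state of the title as a covariate edgeR called 6 of the 35, Bst2, Ifi35, Oasl2, Parp9, Rsad2 and Tap2, all higher, at Benjamini-Hochberg adjusted p between 0.0137 and 0.0472. That is the sole setting with more than 2 calls, and it called 3.2% of all genes higher and 1.98% lower. The median log2 fold change of the 35 in this setting was 1.01, with 31 of 35 above 0. Without adjustment 25 of the 35 had p under 0.05 in this edgeR fit, as did 3051 of all 13704 genes.

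**Figure D4:**
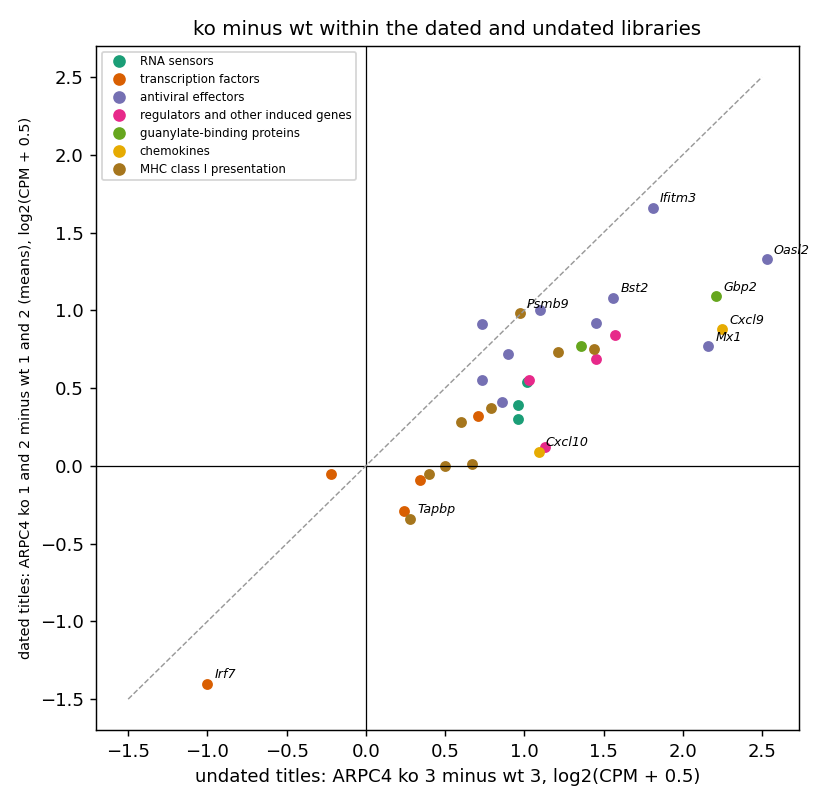
Difference of each tested gene between ARPC4 ko and wt within the undated libraries (horizontal axis, 1 library each) and within the dated libraries (vertical axis, means of 2), both on the log2(CPM + 0.5) scale, coloured by role. Most points lie right of 0 and above 0 but below the dashed line of equal differences, and Irf7 lies at -1.0 and -1.40.

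Other genes of the pathway were examined in the same test, from lists chosen by function with earlier results of these data known. Of 144 such genes 102 were tested, and edgeR called 0 with Benjamini-Hochberg adjustment, while an unadjusted p under 0.05 was found for 27 on the higher and 1 on the lower side, or 26.5% higher against 7.98% of all genes. DESeq2 called 7 of 114, all higher, where it called 2.82% of all genes higher, and limma-voom called 0. Their median log2 fold change was 0.44. Of 21 interferon genes 0 had enough reads for a test and 16 had 0 counts in every library. The summed level of the 21 was 0.298, 0.296 and 0.525 CPM in ko 1 to 3, against 0.264, 0.319 and 0.227 CPM in wt 1 to 3. The 5 that were seen at all, named here after their values were known, were Ifnb1, Ifnab, Ifnk, Ifng and Ifnl2. Ifng had 1, 1 and 3 counts in ko 1 to 3, against 2, 0 and 4 counts in wt 1 to 3. A difference in interferon messages was not detectable at this depth.

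The 9 receptor and kinase genes had a median of 0.20. Of these, 2 were higher at an unadjusted p under 0.05 with edgeR, or 22.2% against 7.98% of all genes. Jak2, the kinase of the interferon gamma receptor, stood at 32.5, 32.6 and 52.7 CPM in ko 1 to 3, against 22.3, 15.6 and 24.7 CPM in wt 1 to 3. The groups did not overlap, and the log2 fold change was 0.91 (SE 0.26; edgeR, Benjamini-Hochberg adjusted p = 0.192). Ifngr2, the signalling chain of the same receptor, had a log2 fold change of 0.32 (SE 0.13), and Ifnar1, a chain of the type I receptor, of 0.20 (SE 0.15).

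Of 16 STAT, IRF and feedback genes 3 had an unadjusted p under 0.05 with edgeR, all of them higher in ko. That is 18.8% against 7.98% of all genes, and the median of the 16 was 0.10. Socs1, the feedback inhibitor of JAK kinases, stood at 2.98, 1.83 and 6.24 CPM in ko 1 to 3, against 1.23, 1.81 and 1.54 CPM in wt 1 to 3, with a log2 fold change of 1.28 (SE 0.48). Its lowest ko library was close to its highest wt library. Stat3 had a log2 fold change of 0.44 (SE 0.13).

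Genes of nucleic acid sensing and signalling had the largest share of separated groups among the pathway lists. Of 17 tested, 10 had an unadjusted p under 0.05 with edgeR, all of them higher in ko, or 58.8% against 7.98% of all genes. In 11 every ko library was above every wt library, a share of 64.7% against 11.3% of all genes. Among the cell type markers described below this share was 100% of 6 tested endothelial and 71.4% of 7 fibroblast genes. It was 0 to 40% in the other marker lists with tested genes. Samhd1, an enzyme that breaks down deoxynucleotides, stood at 54.3, 66.2 and 90.95 CPM in ko 1 to 3, against 28.1, 31.7 and 37.2 CPM in wt 1 to 3. The groups did not overlap, and its log2 fold change was 1.12 (SE 0.21; edgeR, Benjamini-Hochberg adjusted p = 0.0946). Ifi204, a DNA sensor of the interferon-inducible p200 family, stood at 4.17, 8.87 and 6.98 CPM in ko 1 to 3, against 1.15, 0.957 and 1.9 CPM in wt 1 to 3. Here ko 2 and not ko 3 was the highest, and the log2 fold change was 2.30 (SE 0.39; edgeR, Benjamini-Hochberg adjusted p = 0.085). Cgas, the cytosolic DNA sensor that makes a cyclic dinucleotide, stood at 9.0, 9.34 and 9.13 CPM in ko 1 to 3, against 5.68, 6.28 and 4.35 CPM in wt 1 to 3. The ko libraries were nearly equal, and the log2 fold change was 0.75 (SE 0.19).

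Of 37 tested genes among the other interferon-induced ones 11 were higher at an unadjusted p under 0.05 with edgeR, or 29.7% against 7.98% of all genes. At that level 1, Tor3a, was lower, against 5.25% of all genes, and the median of the 37 was 0.84. Slfn5 stood at 2.04, 1.77 and 1.99 CPM in ko 1 to 3, against 0.704, 1.06 and 0.816 CPM in wt 1 to 3, with a log2 fold change of 1.18 (SE 0.27). Ifitm1, a relative of Ifitm3, stood at 1.54, 1.18 and 1.15 CPM in ko 1 to 3, against 0.22, 0.426 and 0.589 CPM in wt 1 to 3, with a log2 fold change of 1.65 (SE 0.39). In Slfn5 and Ifitm1, named for their small p, ko 3 did not stand apart from ko 1 and ko 2. Over all 48 genes of the list ko 3 was the highest library. The list mean, as log2(CPM + 0.5), was 1.65, 1.35 and 2.20 in ko 1 to 3 and 1.20, 1.03 and 1.51 in wt 1 to 3. Sp100, of nuclear bodies, and Samd9l, a brake on cell growth and viruses, had log2 fold changes of 1.42 (SE 0.39) and 0.75 (SE 0.21). Of 16 tested genes among the other class I, loading and peptide genes 0 had an unadjusted p under 0.05, and the median was 0.21. The 7 class II genes had a median of 0.58, and 1 of them, the transactivator Ciita, had an unadjusted p under 0.05 (log2 fold change 0.89, SE 0.28). That is 14.3% of the 7, against 7.98% of all genes on the higher side.

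Marker genes of the cell types that such samples can hold were measured in the same libraries. Suprabasal and basal keratinocyte markers were abundant in all libraries, which bears out the label epidermis. Basal markers averaged 7.83, 8.11 and 9.76 in ko 1 to 3 and 9.07, 6.70 and 9.61 in wt 1 to 3, on the log2(CPM + 0.5) scale. Ko 3 and wt 3, which held the highest levels of the 40 genes in each genotype, were also the highest for basal markers, and wt 2 was the lowest of all for both. Krt1, a suprabasal keratin, ran the other way, with 59234, 70327 and 36484 CPM in ko 1 to 3 and 42474, 52617 and 31502 CPM in wt 1 to 3. The part of basal and suprabasal cells in the levels of the 40 genes was not tested.

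Markers of Langerhans cells, the dendritic cells of the epidermis, averaged 6.45, 5.4 and 6.4 in ko 1 to 3 and 5.07, 5.17 and 6.17 in wt 1 to 3. The list holds 4 class II genes, and all 7 had log2 fold changes above 0 with a median of 0.49. Their summed level ran from 508.5 to 1125 CPM in ko and from 385.9 to 912.8 CPM in wt. Macrophage and monocyte markers had a summed level of 71.3 to 92.7 CPM in ko and 38.0 to 69.0 CPM in wt, and 9 of 9 had log2 fold changes above 0. The macrophage receptor Mrc1 stood at 4.17, 3.96 and 6.5 CPM in ko 1 to 3, against 0.484, 0.745 and 1.09 CPM in wt 1 to 3, with a log2 fold change of 2.65 (SE 0.37; edgeR, Benjamini-Hochberg adjusted p = 0.0637). Fibroblast markers summed to 237.4 to 777.8 CPM in ko and 89.1 to 195.4 CPM in wt, and endothelial markers to 9.86 to 20.4 CPM in ko and 3.35 to 4.23 CPM in wt. For both lists ko 3, the highest library for the 40 genes, was the lowest ko library. Neutrophil markers summed to 0.532 to 2.57 CPM in ko and 0.44 to 0.585 CPM in wt, with Ly6g and Mmp8 at 0 in all libraries. T and NK cell markers averaged 3.38, 2.49 and 1.95 in ko 1 to 3 and 2.79, 3.08 and 2.71 in wt 1 to 3, and melanocyte markers 3.28, 3.55 and 4.13 in ko 1 to 3 and 3.10, 3.21 and 3.07 in wt 1 to 3. Markers of B and plasmacytoid cells summed to 5.07 to 6.56 CPM in ko and 3.17 to 5.16 CPM in wt. The part of these cells in the levels of the 40 genes was not tested.

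**Figure D5:**
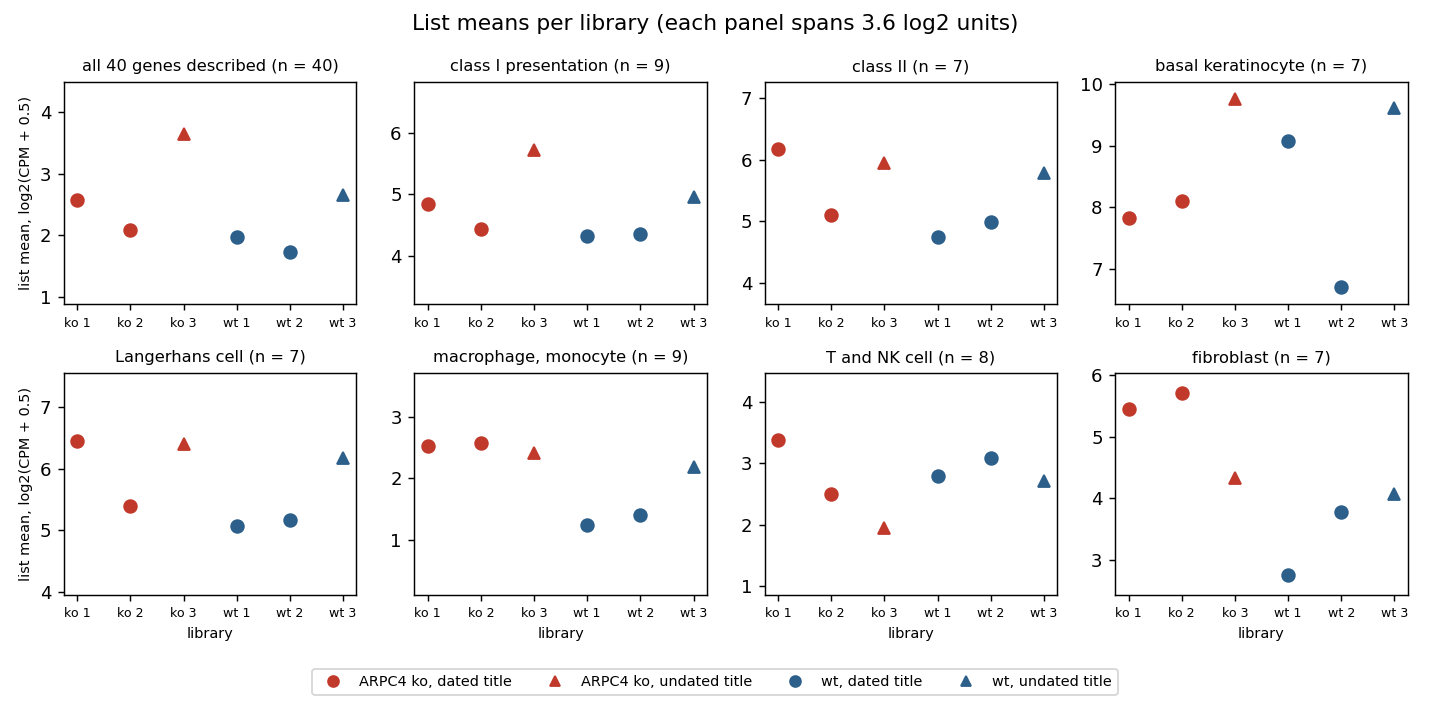
Mean log2(CPM + 0.5) of 8 gene lists (vertical axis, each panel spanning the same height) in each library, ARPC4 ko in red left of wt in blue, with triangles for the undated titles. The mean of the 40 genes is highest in ko 3 at 3.64 and wt 3 at 2.65, where the basal markers are also high at 9.76 and 9.61, while fibroblast markers are highest in ko 1 and ko 2.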

How the data were processed

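RNA from 3 ARPC4 ko and 3 wt epidermis samples was sequenced. The authors deposited raw read counts for each Ensembl gene. The submitters' processing notes list the build mm10 and the tools HTSeq, TopHat2 2.0.12 and Bowtie 1.1. Their settings, the annotation release and the strand option were not given in the sources used here, so overlapping and antisense genes cannot be told apart. Reads not assigned to a gene stayed out of library sizes and tests. Of all entries counted, 32.4 to 40.9% were for several alignments, 0.38 to 0.499% for several genes and 0.341 to 0.377% for no gene.

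Symbols were matched for 40254 of 41214 identifiers and GENCODE M21 coordinates (GRCm38, 1-based) for 40340. Counts were filtered by filterByExpr, scaled by TMM and tested with edgeR 4.0.16 in R 4.3.3 (glmQLFit, robust; glmQLFTest; genotype as the sole factor; Benjamini-Hochberg adjustment over 13704 genes, threshold 0.05). An SE is |log2 fold change| divided by the root of F. CPM are counts over TMM-scaled library size. The alternatives were other scalings and filters, DESeq2 1.42.0, limma 3.58.1 (voom), the older quasi-likelihood fit, a replicate block, a covariate for dated against undated titles, the dated libraries alone and leaving out each library. The sex covariate was added after seeing the data. The test was checked on simulated data.

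Groups came from the genotype label, and replicate numbers from marks in the titles. Replicates of a group differed by more than sampling noise (chi-square over its degrees of freedom, 24.4 to 105.5), so each counted as 1 sample. Counting error is large for genes under 1 CPM. The 40 genes, the other pathway lists and the markers were chosen with earlier results of these data known. Values were given for all 40 genes, with adjusted p for the members that had the smallest p of their role or an unadjusted p under 0.05, and from the other lists for the 4 genes with the smallest p or, in lists of up to 9 genes, any gene. The markers Flg and Trdc had no matching identifier and were not used here. Promoter windows came from the RefSeq table for GRCm38.p6, which was matched by symbol. Some genes of the other pathway lists are counted but not reported here by name.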

Additional observations from a re-analysis of the deposited data

How the results depend on the processing

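Of all genes 30 were called. There were 57 without a filter on low counts, 18 with at least 1 CPM in 3 libraries, 18 with the older quasi-likelihood fit, 650 with DESeq2, 0 with limma-voom (1748 at an unadjusted p under 0.05), 709 with dated or undated titles as a covariate, 227 among the dated libraries, 62 with the sex covariate, which was chosen after seeing the data, and 0 to 64 when 1 library was left out. None was called without ko 2, wt 1, wt 2 or wt 3 (1229 to 2350 genes at an unadjusted p under 0.05), and 64 were called without ko 3. Of the 35 tested interferon and class I genes 0 were called, against 2 with DESeq2 and 6 with the title covariate; 0 were called in every fit that left out 1 library. Of the other pathway genes 0 of 102 were called, against 7 of 114 with DESeq2 and 8 of 102 with the title covariate. Among the dated libraries 2 of 103 were called, including Samhd1. These calls were all higher in ko. Over all genes, 431 of 15283 were called higher with DESeq2, 438 of 13704 with the title covariate and 160 of 13812 among the dated libraries. In each case the cause was not tested.

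The main test did not use the replicate numbers as pairs. Deviations of same-numbered libraries correlated at -0.186, 0.469 and 0.67, the last for the undated ko 3 and wt 3. Those of differently numbered libraries ran from -0.689 for ko 3 with wt 2 to 0.509 for ko 1 with wt 2. With a replicate block 354 genes were called, 254 higher and 100 lower in ko. They included 2 of the 35, Gbp2 and Oasl2, and 7 of the 102 other pathway genes, all of them higher. Without adjustment 27 of the 35 had p under 0.05 in this edgeR fit, as did 2956 of all 13704 genes. The median log2 fold change of the 35 was 1.02 with this block.

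The median log2 fold change of the 35, 1.12, ran from 0.10 to 1.39 when 1 library was left out, and 0.10 was the value without ko 3. Directions turned for Irf1 (leaving out 1 library, -1.13 to 0.15), Stat2 (-0.26 to 0.28; dated libraries -0.12, sex covariate -0.09), Isg15 (-0.06 to 1.31), Ifitm3 (-0.05 to 2.93), Usp18 (-0.55 to 2.29), Tap1 (-0.14 to 1.1), Cxcl10 (-0.80 to 1.11; dated -0.30), B2m (-0.31 to 0.43; dated -0.07, sex covariate -0.14), H2-D1 (-0.09 to 0.35; dated -0.02), Tapbp (-0.46 to 0.14) and Nlrc5 (dated -0.02). None of these had been called. Of the members' log2 fold changes under the alternatives 551 kept direction and call, 10 gained a call and 24 turned. Scaling moved the median of all genes by less than 0.1. With 3 libraries a group and 4 effectors under 1 CPM in every library, counting error limits what can be seen.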
